A study of Mus musculus with 6 samples.

Results

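The gene expression described here is that of kidney cells labelled as proximal tubule, from control mice, in 3 of the 6 RNA sequencing libraries of a study. Transcripts of later tubule segments were also abundant in these libraries. The 3 libraries were taken by their control label (Ctr replicates 1, 2 and 3). Their levels are reported as they stand, with no comparison to the other 3 libraries. The mice were adult C57BL/6 females that had lost their ovaries at postnatal day 21, and their kidneys were uninjured. The labels give no further genotype for the controls and call the libraries biological replicates, without saying how many animals each one holds. Cells were released from kidney cortex in a tissue dissociator and drawn out with magnetic beads against prominin-1 (Prom1), a surface protein of the proximal tubule brush border. RNA from these cells was made into libraries that keep the strand. Values are FPKM, the fragments assigned to a gene, scaled by the length of its transcript and by the size of the library. A mean is given with its SD over the 3 libraries (n = 3) unless stated otherwise.

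The proximal tubule is the first stretch of the nephron after the glomerulus. It takes back most of the filtered glucose, amino acids, phosphate, bicarbonate and protein through a brush border of microvilli, powered by the sodium pump of its basal side. It also makes glucose and arginine, activates and breaks down vitamin D, secretes organic acids and bases, and lives on the oxidation of fatty acids and other fuels in mitochondria rather than on glycolysis. Its segments are called S1, S2 and S3 in order of flow, and the thick ascending limb, distal convoluted tubule, connecting tubule and collecting duct follow further along the nephron.

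The libraries held about 22100000, 22500000 and 23200000 fragments in Ctr replicates 1, 2 and 3, as read from the steps of 1 fragment in the FPKM of short genes with a single transcript. The table lists 52405 gene identifiers, of which 27707 were listed at 0 in all 3 libraries and 12758 had a mean of at least 1 FPKM. A mean of 10 FPKM was reached by 6373 genes, of 100 FPKM by 881 and of 1000 FPKM by 59. The summed FPKM was concentrated in few genes, 99 of which held 50% of it. The 10 most abundant genes held 28.5 ± 1.83% and the 100 most abundant held 50.1 ± 1.97%. Of those 10 genes, 9 were encoded by the mitochondrial genome or were nuclear copies of it. Mitochondrially encoded genes took 22.2, 24.1 and 19.98% of the summed FPKM in Ctr replicates 1, 2 and 3. The share was highest in Ctr replicate 2 and lowest in Ctr replicate 3.

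The mitochondrial signal was divided between the mitochondrial genome and a block of near-identical sequence on chromosome 1, which the annotation lists as separate pseudogenes. The 7 copies examined took a further 13.3 ± 1.01% of the summed FPKM, so that both together held 35.4 ± 3.06%. The copy of mt-Atp6, a subunit of ATP synthase, is Gm10925 and matched it at 678 of 678 aligned bases. Gm10925 was listed at 48305, 53239 and 43918 FPKM in Ctr replicates 1, 2 and 3, against 8442, 8057 and 6351 FPKM for mt-Atp6. The copy therefore held 86.4 ± 1.18% of the pair, while Gm28661, which matched mt-Co2 at 681 of 681 bases, held 0.0230 ± 0.0201% of its pair. The first bases of the first pair and the only stretch at which a second pair differs are printed to show how little sequence there is to tell the copies apart. Coordinates are GRCm38. The capitals mark the single base at which Gm28438, the copy of mt-Nd3, differs from it, which is C3T with the copy's base first and positions counted from 1 at the 5′ end of the stretch.
Gm10925 (chr1:24614612-24614651, minus strand): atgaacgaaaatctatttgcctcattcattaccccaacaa
mt-Atp6 (chrM:7927-7966, plus strand): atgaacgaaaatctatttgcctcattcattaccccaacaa
Gm28438 (chr1:24613097-24613119, minus strand): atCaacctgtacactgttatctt
mt-Nd3 (chrM:9459-9481, plus strand): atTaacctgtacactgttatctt
The split within each pair is uncertain, and only the sum of a pair can be read as a level. That sum was 56104 ± 5541 FPKM for mt-Atp6 with its copy, 41197 ± 3517 FPKM for mt-Co3, a subunit of cytochrome oxidase, with Gm28437, and 12117 ± 854 FPKM for mt-Nd3, a subunit of complex I, with Gm28438.

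Nuclear protein-coding genes held 62.3 ± 3.09% of the summed FPKM over 21916 identifiers, and ranks from here on are within these genes. Their expression was much less concentrated than the whole, with 465 genes holding 50% of their sum. Gpx3, the glutathione peroxidase that the kidney secretes into plasma, stood first in every library, at 15038, 11418 and 16349.6 FPKM in Ctr replicates 1, 2 and 3. The gene is listed as ENSMUSG00000018339, GRCm38 chromosome 11, 54902453 to 54910377. Gpx3 alone took 3.09 ± 0.487% of the nuclear protein-coding sum. The ferritin subunits Fth1 and Ftl1, which store iron, had 3471 ± 138 and 2857 ± 66.1 FPKM, with the translation factor Eef1a1 between them at 3120.02 ± 264 FPKM. Fxyd2, the regulatory subunit of the sodium pump, was among the steadiest of the abundant genes, at 2834, 2857 and 2782 FPKM.

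The next places were held by genes of the tubule's own work. Miox, which opens the ring of myo-inositol, stood at 2745, 2654 and 2748 FPKM and Slc34a1, the phosphate carrier of the brush border, at 2669, 1935 and 2643 FPKM. Miox differed little between libraries, while Slc34a1 (ENSMUSG00000021490, GRCm38 chromosome 13, 55398187 to 55415592) was lowest in Ctr replicate 2. Pck1, the phosphoenolpyruvate carboxykinase of glucose production, was listed at 1388, 2438 and 2268 FPKM, lowest in Ctr replicate 1. Ass1, the argininosuccinate synthase of arginine production, was listed at 2276, 1579.8 and 1953 FPKM, lowest in Ctr replicate 2. Atp1b1, the beta subunit of the sodium pump, was listed at 1515, 1753 and 1893 FPKM, lowest in Ctr replicate 1 and highest in Ctr replicate 3. The top 25 also held 2 genes from the marker lists of other tubule segments, Klk1 at rank 12 and Umod at rank 20, which are taken up with those segments. Neighbours in the order of the top 25 were rarely separate. Only 3 of its 24 neighbouring pairs had ranges over the libraries that did not overlap, among them Fth1 above Eef1a1 and Fxyd2 above Miox. The ferritin genes, Eef1a1 and Tpt1 have many processed pseudogenes in the mouse genome, so their levels are uncertain by whatever part of their fragments was assigned to those.

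**Figure D1:**
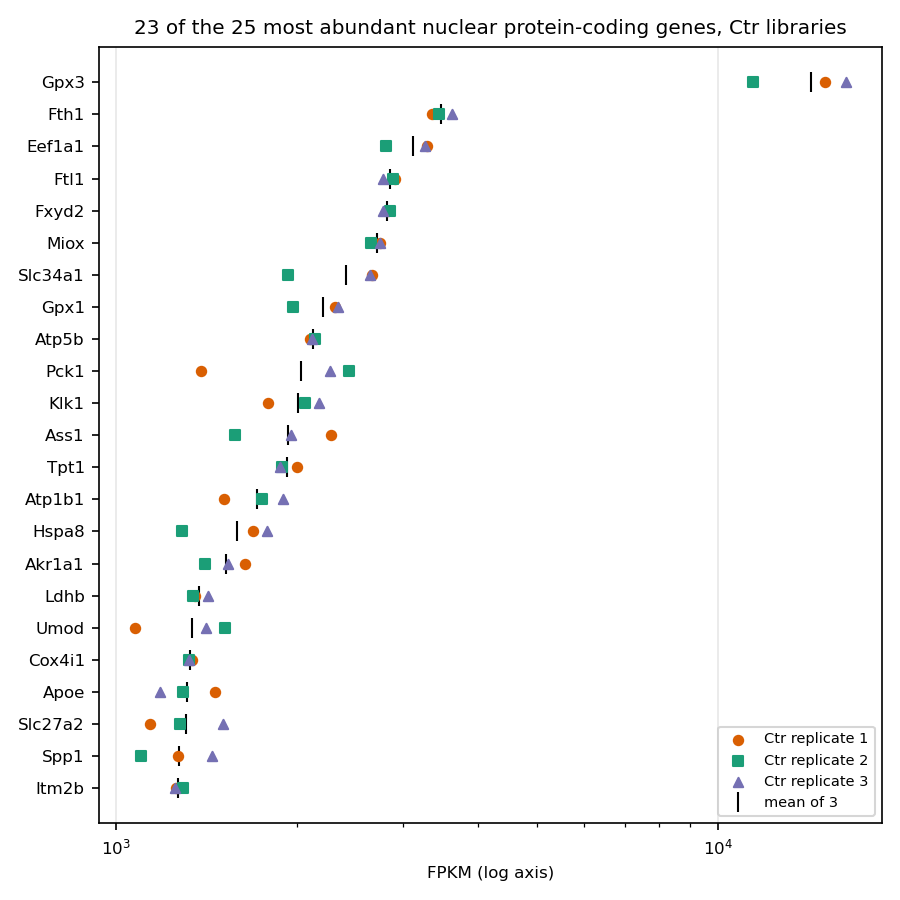
FPKM on a log axis of 23 of the 25 nuclear protein-coding genes of highest mean, 1 row per gene, with a point for each of the 3 Ctr libraries and a bar for the mean. Gpx3 lies apart from all others at a mean of 14269 FPKM, and below it the points of neighbouring rows mostly overlap.

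Genes with an Slc symbol, the solute carriers, were measured as a family of 383. Of these, 257 had a mean of at least 1 FPKM, which is 67.1% of the family, against 52.4% of all nuclear protein-coding genes. They held 3.53 ± 0.164% of the nuclear protein-coding sum, and Slc34a1 alone made up 14.9% of the family's summed FPKM. Transporters are described by cargo in what follows, from lists of 7 to 22 genes each, and every list member is counted.

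For glucose and fructose, all but 1 of 11 listed genes reached 1 FPKM. Slc5a2 (SGLT2, ENSMUSG00000030781, GRCm38 chromosome 7, 128265657 to 128272430), the high-capacity sodium-glucose carrier of the early segments, was listed at 441, 265 and 503 FPKM in Ctr replicates 1, 2 and 3. Slc5a1 (SGLT1), the high-affinity carrier of the late segment, was listed at 18.8, 29.8 and 29.4 FPKM. The range of Slc5a2 lay wholly above that of Slc5a1, by 23.5, 8.9 and 17.1 times within Ctr replicates 1, 2 and 3, lowest in Ctr replicate 2. Slc2a2 (GLUT2), the basolateral exit for glucose, had 116 ± 23.9 FPKM and stood above every other listed member of its own family, Slc2a5 (57.2 ± 9.3 FPKM), Slc2a1 (25.3 ± 1.76 FPKM), Slc2a4 (14.8 ± 0.99 FPKM) and Slc2a9 (14.3 ± 3.21 FPKM). Slc2a3 was close to the limit of measurement at 0.35, 0.13 and 0.11 FPKM. Slc5a10, a carrier of mannose and fructose, had the widest spread of the listed genes that reached 1 FPKM, at 30.2, 82.01 and 107 FPKM, lowest in Ctr replicate 1. Slc5a12 and Slc5a8, the low- and high-affinity lactate carriers, had 123 ± 42.1 and 30.97 ± 3.87 FPKM.

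For phosphate, sulphate and vitamins, all 11 listed genes reached 1 FPKM, yet Slc34a1 held most of the level. Its mean was 2415 FPKM, where the whole list summed to 2800 FPKM. Slc34a1 exceeded Slc34a3, the second phosphate carrier of the brush border, by 51.1 ± 11.9 times within libraries. Slc34a3 was listed at 54.3, 30.3 and 65.6 FPKM and Slc34a2, the lung and gut member, at 1, 1.14 and 1.37 FPKM. Both Slc34a1 and Slc34a3 were lowest in Ctr replicate 2. Slc13a1, which takes up sulphate, was level at 175, 184 and 188 FPKM, and Slc23a1, which takes up vitamin C, had 68.7 ± 8.03 FPKM. The widely expressed phosphate carriers Slc20a1 and Slc20a2 had 12.6 ± 1.97 and 13.4 ± 0.81 FPKM.

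For sodium, acid, chloride and water, 18 of 20 listed genes reached 1 FPKM and 11 reached 100 FPKM. Lower than the sodium pump subunits Fxyd2 and Atp1b1 stood Car2, the cytosolic carbonic anhydrase, at 305 ± 25.5 FPKM, and the membrane-bound Car4 and Car14 at 86.2 ± 5.07 and 77.99 ± 18.8 FPKM. Aqp1, the water channel of both faces of the cell, was listed at 271, 203 and 223 FPKM. Slc4a4 (NBCe1), the basolateral bicarbonate exit, was listed at 229, 156 and 225 FPKM, and Slc9a3 (NHE3), the sodium-proton exchanger of the brush border, at 32.2, 29.3 and 41.1 FPKM. The ranges of Aqp1 and Slc4a4 overlapped, and that of Slc9a3 lay below both. Cldn2, the claudin that lets sodium and water pass between cells, had 142 ± 22.9 FPKM. Fxyd2, Atp1b1 and Car2 are known to be used by other tubule segments too, and what part of their levels came from those segments was not tested.

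For amino acids and peptides, 17 of 20 listed genes reached 1 FPKM. Cltrn (collectrin), which carries the neutral amino acid carriers to the brush border, had the highest level, at 1220.1, 904 and 1321 FPKM in Ctr replicates 1, 2 and 3. Its main client Slc6a19 (B0AT1) was listed at 196, 96.6 and 169.8 FPKM, so that Cltrn was 7.79 ± 1.56 times as high within libraries. Both were lowest in Ctr replicate 2. The carrier of cystine and dibasic amino acids is a pair of Slc3a1 and Slc7a9, which had 230.03 ± 24.4 and 107 ± 24.3 FPKM. The basolateral pair for dibasic amino acids, Slc3a2 and Slc7a7, had 196 ± 45.1 and 119 ± 37.4 FPKM. In both pairs the heavy chain stood above the light chain in each library. Slc15a2 (PEPT2), the high-affinity peptide carrier, had 36.4 ± 3.21 FPKM and Slc15a1 (PEPT1) 0.38 ± 0.0265 FPKM. Slc36a2, a carrier of proline and glycine, was listed at 0 in all 3 libraries. Ctr replicate 2 stood apart as low in 5 of the 17 genes that reached 1 FPKM. In these it lay at least 1.5-fold below the mean of the other 2 libraries and below each of them. The same held for 3.88% of the 12758 genes of mean at least 1 FPKM.

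For organic ions, urate and drugs, 20 of 22 listed genes reached 1 FPKM. Slc22a12 (URAT1), the urate exchanger of the brush border, was listed at 405, 549.8 and 471 FPKM and Slc22a8 (OAT3), a basolateral carrier of organic anions, at 290, 331 and 310.3 FPKM. Both were lowest in Ctr replicate 1 and highest in Ctr replicate 2. The export pumps Abcg2 and Slc47a1 (MATE1) had 189.9 ± 15.4 and 175 ± 11.4 FPKM. Slc22a6 (OAT1) had 155 ± 28.6 FPKM, below Slc22a8 by 2.04 ± 0.309 times within libraries. Slc22a7 (OAT2) was uneven, at 2.03, 14.4 and 11.6 FPKM, far lower in Ctr replicate 1 than in the others. For mono- and dicarboxylates, Slc13a3 (NaDC3) of the basal face, at 425 ± 41.6 FPKM, stood above Slc13a2 (NaDC1) of the brush border, at 40.9 ± 1.03 FPKM.

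For the uptake of filtered protein, all 9 listed genes reached 10 FPKM. Folr1, the folate receptor, was listed at 374, 298 and 388 FPKM, Lrpap1, the chaperone of megalin, at 279, 235 and 293 FPKM, and Dab2, the adaptor of megalin, at 174, 135 and 193 FPKM. All 3 were lowest in Ctr replicate 2. Megalin itself (Lrp2) had 96.4 ± 19.1 FPKM, its partner Amn 92.8 ± 6.52 FPKM and cubilin (Cubn) 38.3 ± 6.09 FPKM. Lrp2 stood above Cubn in each library, by 2.51 ± 0.174 times.

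**Figure D2:**
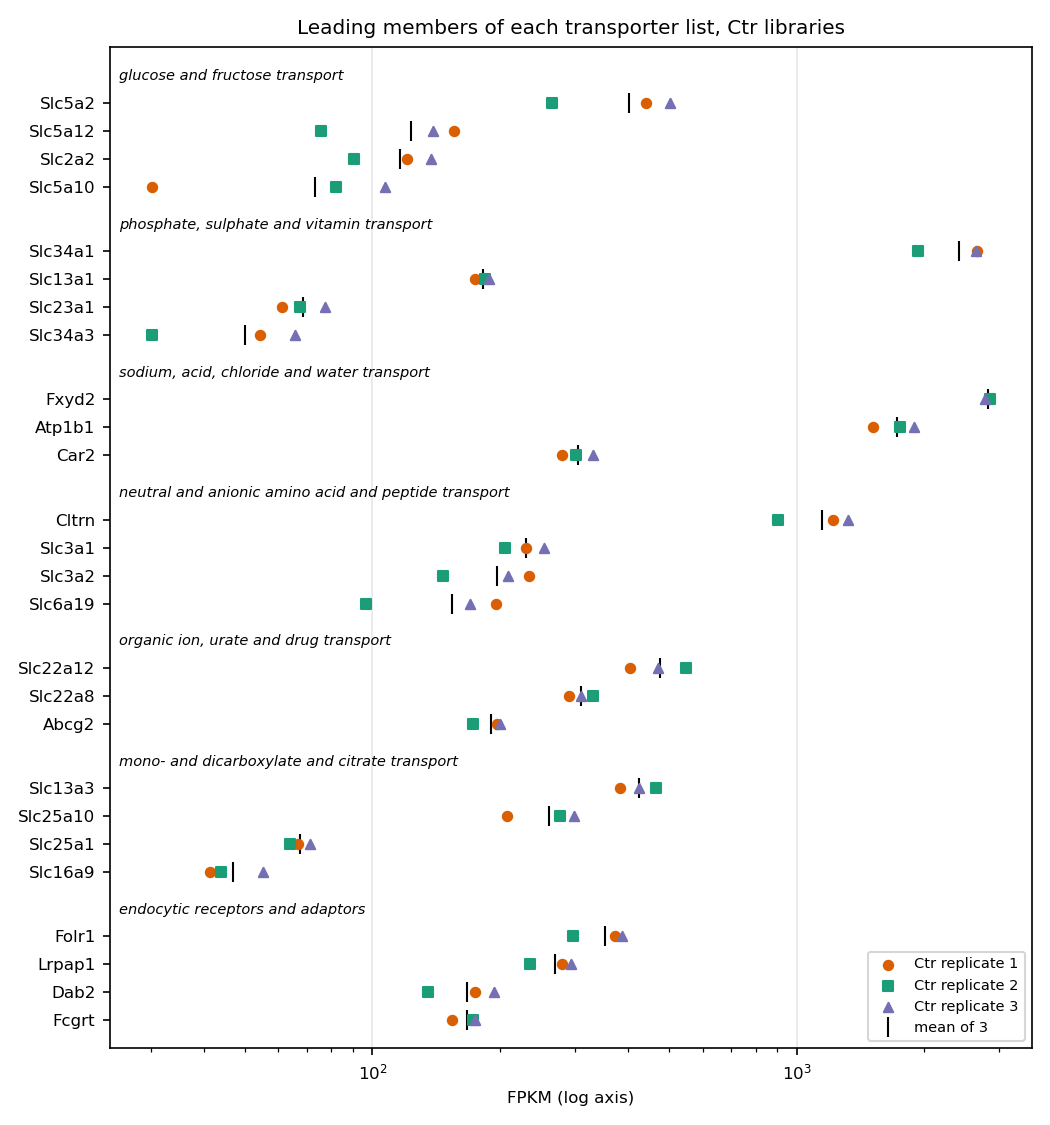
FPKM on a log axis of 3 or 4 leading members of each of the 7 transporter lists, with a point for each of the 3 Ctr libraries and a bar for the mean. Slc34a1, Fxyd2 and Atp1b1 stand highest, Slc5a10 shows the low point of Ctr replicate 1, and Ctr replicate 2 is lowest in Slc34a1, Slc34a3 and Slc6a19.

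At the brush border surface, Ggt1, which cleaves glutathione, had the highest level of the 14 listed peptidases and hydrolases, at 465, 501 and 518 FPKM in Ctr replicates 1, 2 and 3. Alpl, the alkaline phosphatase, had 280.3 ± 39.7 FPKM and Mep1a, the alpha subunit of meprin, 225 ± 21.8 FPKM. The beta subunit, Mep1b, was far lower, at 1.97, 8.81 and 5.97 FPKM, and lowest in Ctr replicate 1. Ace, which makes angiotensin II, had 11.04 ± 1.76 FPKM.

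Genes of glucose production were abundant and those of the first steps of glycolysis were lower. All 6 listed genes of gluconeogenesis reached 10 FPKM and 5 reached 100 FPKM. Fbp1, the fructose bisphosphatase, was listed at 759, 674 and 745 FPKM, and G6pc, the glucose 6-phosphatase that frees glucose, at 225, 221 and 299 FPKM. Pck1 exceeded the mitochondrial form Pck2 by 191 ± 45.7 times. Fbp1 exceeded Pfkl, the phosphofructokinase of the opposite step, by 33.3 ± 4.13 times. Of the hexokinases, Hk1 had 45.3 ± 7.28 FPKM, while Hk2 had 0.19, 0.02 and 0.08 FPKM and Hk3 0.08, 0 and 0 FPKM. Ldhb exceeded Ldha by 5.4 ± 0.346 times. Ldha and Ldhb encode the subunits of lactate dehydrogenase. All 5 listed genes of fructose and sorbitol metabolism reached 10 FPKM, among them Sord, the sorbitol dehydrogenase, at 726 ± 99.4 FPKM and Khk, the ketohexokinase, at 570.2 ± 42.5 FPKM. Gapdh and Aldoa, which serve both directions, had 1019 ± 60.1 and 684 ± 36.7 FPKM.

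Of 20 listed genes of fatty acid oxidation, all reached 1 FPKM and 13 reached 100 FPKM. Acsm2, a medium-chain acyl-CoA synthetase of the kidney, was listed at 837, 566 and 979 FPKM, Etfb, which passes electrons to the respiratory chain, at 465, 513 and 559 FPKM, and Acadm, the medium-chain dehydrogenase, at 343, 389 and 435 FPKM. All 3 were highest in Ctr replicate 3. Cpt1a, the entry step of long chains into mitochondria, had 148 ± 20.4 FPKM and its muscle form Cpt1b 9.64 ± 2.76 FPKM. Ctr replicate 1 was the lowest library for 15 of the 20 genes, where it was the lowest for 32.2% of the 12758 genes. Among 14 peroxisomal genes, all of which reached 10 FPKM, Acaa1b, the last step of peroxisomal oxidation, was listed at 382, 703 and 597 FPKM and Cat, the catalase, at 449, 486 and 510.1 FPKM.

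All 24 listed nuclear genes for the subunits of the respiratory complexes and of ATP synthase reached 100 FPKM, with a median of 470.2 FPKM over their means. Atp5b, the catalytic subunit of ATP synthase, was listed at 2104, 2147 and 2123 FPKM and Cox4i1, a subunit of cytochrome oxidase, at 1339, 1324 and 1327 FPKM. The libraries differed little in either gene. The median coefficient of variation (CV, the SD as a percent of the mean) of the list was 2.65%, against 10.5% over all 12758 genes. Over all genes of 100 to 1000 FPKM, a level nearer to that of the list, the median CV was 6.71%. The 12 genes of the tricarboxylic acid cycle had a median CV of 6.57%, close to that of all genes of 100 to 1000 FPKM. Of the 12, 10 were highest in Ctr replicate 3, where 31.5% of all genes were.

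All 24 listed genes of amino acid and creatine metabolism reached 10 FPKM. Below Miox and Ass1 was Gatm, the first enzyme of creatine synthesis, at 515, 298 and 455 FPKM. Gatm was highest in Ctr replicate 1 and lowest in Ctr replicate 2. Ctr replicate 2 was the lowest library for 20 of the 24 genes, where it was the lowest for 33.9% of all genes. Asl, which completes arginine synthesis after Ass1, had 253 ± 58.97 FPKM, and Glul, the glutamine synthetase, 354 ± 106 FPKM.

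For drug and steroid metabolism, 34 of 99 genes with a Cyp symbol reached 1 FPKM and 33 were listed at 0 in all libraries. Fmo1, a flavin monooxygenase, had the highest level in the list of P450 enzymes and flavin monooxygenases, at 468, 445 and 497 FPKM. Cyp2j5, an epoxygenase of arachidonic acid, had 399.8 ± 57.7 FPKM. Cyp4a14 and Cyp4a10, which hydroxylate fatty acids, had 392 ± 74.99 and 371 ± 93.1 FPKM, and are so alike in sequence that the division between them is uncertain. Ctr replicate 3 was the highest library for 12 of the 17 listed genes of at least 1 FPKM, where it was highest for 31.5% of all genes. It stood at least 1.5-fold above the mean of the others in 4 of them, Cyp4b1, Cyp24a1, Cyp4a12a and Cyp4a12b, where 1.98% of all genes did. Cyp24a1, which inactivates vitamin D, was listed at 84.6, 73.9 and 121 FPKM and Cyp27b1, which activates it, at 2.73, 1.85 and 3.07 FPKM. The ratio of Cyp24a1 to Cyp27b1 was 31.0, 39.9 and 39.3 within Ctr replicates 1, 2 and 3. Of the glutathione and conjugation enzymes, Gpx1, the cytosolic glutathione peroxidase, had 2210.4 ± 206 FPKM, Gsta2, a glutathione transferase, 1079.9 ± 38.8 FPKM and Ugt1a2, a glucuronosyl transferase, 1032 ± 55.98 FPKM. The Ugt1a genes share their last exons, so their division is uncertain too.

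Among 12 transcription factors of the tubule, all reached 1 FPKM. Hnf4a was highest, at 175, 132 and 180.3 FPKM, and its relative Hnf4g had 3.07 ± 0.72 FPKM. The values of Hnf4a were lowest in Ctr replicate 2. Esrra, a regulator of mitochondrial genes, had 68.3 ± 7.71 FPKM and Maf 57.96 ± 6.41 FPKM.

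Of 17 hormone receptors, 14 reached 1 FPKM. Pth1r, the receptor for parathyroid hormone, which governs phosphate uptake, was listed at 273, 246 and 260.03 FPKM, Ghr, the receptor for growth hormone, at 83.9, 94.5 and 101 FPKM, and Vdr, the receptor for active vitamin D, at 46.5, 52.7 and 57.4 FPKM. The ranges of the 3 did not overlap. Prlr, the prolactin receptor, had 47.1 ± 2.02 FPKM. Igf1r, the receptor for insulin-like growth factor 1 that the study is about, was listed at 18.7, 15.3 and 22.7 FPKM and Insr, the insulin receptor, at 14.2, 13.9 and 13.8 FPKM, and their ranges did not overlap. The oestrogen receptor Esr1 had 0.813 ± 0.145 FPKM. Agtr1a, the angiotensin receptor, was the least even of those above 10 FPKM, at 23.3, 9.79 and 14.5 FPKM, highest in Ctr replicate 1.

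Genes that male and female kidneys are known to express unequally were read in these females without ovaries. Xist, the RNA of the silent X chromosome, was listed at 19.5, 21.9 and 21.9 FPKM, and the Y-linked Ddx3y, Uty and Eif2s3y were listed at 0 in all 3 libraries. Of the 6 listed genes of X inactivation and the Y chromosome, 5 had a mean below 0.1 FPKM, all but Xist. Of 14 genes known as higher in male kidneys, 11 reached 1 FPKM, 7 reached 10 FPKM and 5 reached 100 FPKM. Kap, the androgen-regulated protein of the tubule, led them at rank 31, with 587, 1268 and 1318 FPKM, lowest in Ctr replicate 1. The 3 below 1 FPKM were Slco1a1, a carrier of organic anions, at 0.04, 0.01 and 0.02 FPKM, Cyp2j13, a P450 enzyme, at 0.08, 0.13 and 0.12 FPKM, and Slc7a13, whose values are given with the S3 genes. All 9 genes known as higher in female kidneys reached 1 FPKM, 7 reached 10 FPKM and 3 reached 100 FPKM. Of these, Slc7a12, an amino acid carrier, was listed at 3.03, 19.2 and 14.9 FPKM and lowest in Ctr replicate 1.

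Immediate early genes, which are known to be switched on while tissue is taken apart, were high. Of 15 such genes, 11 reached 100 FPKM, and Fos, a subunit of the AP-1 factor, stood at rank 49 among nuclear protein-coding genes. Fos was listed at 678, 947 and 708 FPKM, Jun at 293, 389.9 and 288 FPKM and Egr1, a zinc finger factor, at 217, 254 and 189.98 FPKM. Ctr replicate 2 was the highest library for each of these and for 13 of the 15, where it was highest for 34.2% of all genes. Of the genes known from tubular injury, Havcr1 (KIM-1), which injured tubule cells display, was listed at 0.05, 0.08 and 0.05 FPKM and Lcn2 (NGAL) at 0.54, 2.05 and 2.44 FPKM. Spp1 (osteopontin), which injury raises but healthy distal segments also make, stood at 1270.1, 1103 and 1448 FPKM, and Clu (clusterin) at 257 ± 20.1 FPKM.

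The label of the cells was checked against 12 defining markers of the proximal tubule. All 12 reached 10 FPKM and 9 reached 100 FPKM, with a median of 280.4, 234 and 267 FPKM in Ctr replicates 1, 2 and 3. Prom1, the protein the beads bind, was listed at 86.1, 66.7 and 76.8 FPKM. The early markers of S1 and S2 had medians of 213, 159 and 203 FPKM and those of S3 had medians of 21.6, 28.3 and 26.1 FPKM. The S3 median was thus 10.2, 17.8 and 12.9% of the early median. This share was lowest in Ctr replicate 1 and highest in Ctr replicate 2. It says nothing of the number of cells, since the lists hold genes of different strength, and in bulk RNA fewer cells of a type and less RNA per cell cannot be told apart. By sums in place of medians, S3 reached 56.5% of the early markers. Single genes weighed heavily in these sums. Slc27a2 had a mean of 1310 FPKM in an S3 sum of 2434 FPKM, and Slc34a1 2415 FPKM in an early sum of 4422 FPKM. The S3 list shares Slc7a13, Slco1a1, Cyp7b1, Cyp4b1 and Serpina1f with the list of genes higher in male kidneys. With the female list it shares Slc7a12 and Slc22a7. The part that sex and the loss of the ovaries had in the S3 median was not tested.

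The S3 list itself was wide. Slc27a2, which activates very long fatty acids, was listed at 1143, 1281 and 1507 FPKM and Napsa, an aspartic protease, at 219.6, 391 and 422 FPKM. Slc7a13, the S3 carrier of cystine and aspartate, was listed at 0.15, 0.64 and 0.4 FPKM. Ctr replicate 1 was lowest in Slc27a2, Napsa and Slc7a13 alike and in 13 of the 14 S3 genes of at least 1 FPKM, where 32.2% of all genes were lowest in it. It lay at least 1.5-fold below the mean of the others in 8 of the 14, where 4.03% of all genes did. Ctr replicate 2 was the lowest library for 8 of the 10 early genes, where it was the lowest for 33.9% of all genes. Slc6a19, Slc5a12 and Slc7a7 were among the 5 early genes in which it lay at least 1.5-fold below the mean of the others, where 3.88% of all genes did.

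Transcripts of the later nephron were present at high levels beside those of the proximal tubule. Over 40 markers of the thick limb, distal convoluted and connecting tubule and collecting duct together, the median was 14.9, 28.9 and 17.9% of the median of the proximal markers in Ctr replicates 1, 2 and 3. The mean was 20.6 ± 7.36%, with the highest value in Ctr replicate 2. The sum of the same lists gave 88.6% in place of the median, since the few strongest markers of the later segments are very abundant genes.

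By medians, the thick ascending limb came closest, with list medians of 117, 143 and 126 FPKM, or 50.03 ± 9.88% of the proximal median. By sums, the thick limb list reached 31.6% of the proximal markers and stood below the distal convoluted and connecting tubule list at 43.5%. By means of log2(FPKM + 1), the lists reached 27.5% and 25.7%. Umod (uromodulin, ENSMUSG00000030963, GRCm38 chromosome 7, 119462711 to 119479282), the main protein of normal urine, was listed at 1077, 1522 and 1412 FPKM, Egf at 573, 788 and 944 FPKM, and Slc12a1 (NKCC2), the salt carrier of this limb, at 175, 248 and 281 FPKM. Ctr replicate 1 was the lowest library for each of these and for all 10 genes of the list, where it was the lowest for 32.2% of all genes. It lay at least 1.5-fold below the mean of the others in 5 of the 10, where 4.03% of all genes did. In the distal convoluted and connecting tubule, with list medians of 78.6, 53.3 and 64.9 FPKM, the strongest were Klk1 (tissue kallikrein) at 1794, 2063 and 2179.8 FPKM, S100g (calbindin-D9k), a calcium carrier, at 982, 1228 and 1058 FPKM, and Slc12a3 (NCC), the salt carrier of the distal convoluted tubule, at 405, 479.6 and 364 FPKM. No library was lowest throughout this list. Slc12a1 stood below Slc12a3 in each library, at 0.574 ± 0.177 times its level.

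In the collecting duct, principal cell markers had medians of 42.1, 62.3 and 49.3 FPKM and intercalated cell markers of 32.9, 53.7 and 37.3 FPKM. Aqp2, the water channel that vasopressin moves, was listed at 111, 204 and 281 FPKM, and Hsd11b2, which protects the aldosterone receptor from glucocorticoids, at 149, 269.8 and 186 FPKM. Atp6v1b1, a proton pump subunit of intercalated cells, was listed at 79.2, 132 and 104 FPKM. Ctr replicate 1 was the lowest for all 3. Ctr replicate 2 was the highest library for all 10 intercalated genes, where it was highest for 34.2% of all genes, and stood at least 1.5-fold above the mean of the others in 8 of them, where 3.79% of all genes did. Foxi1, the factor that makes intercalated cells, was listed at 10.4, 29.6 and 14.8 FPKM.

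**Figure D3:**
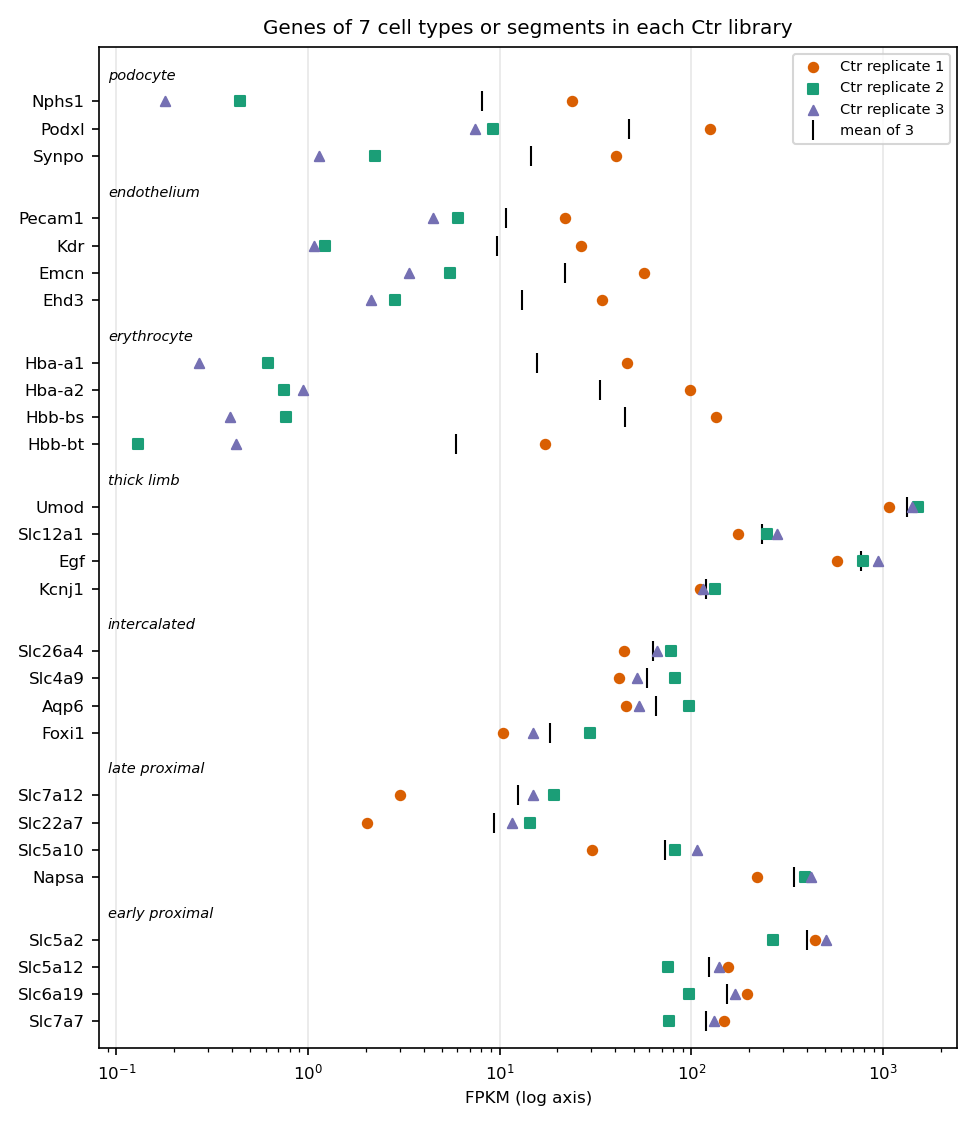
FPKM on a log axis of marker genes of podocytes, endothelium, blood and 4 groups of tubule cells. Each row has a point for each of the 3 Ctr libraries and a bar for the mean. The points of Ctr replicate 1 lie far above the others in the podocyte, endothelial and globin genes and below them in the thick limb, intercalated and late proximal genes, and those of Ctr replicate 2 are lowest in the early proximal genes.

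Transcripts of podocytes, endothelium and erythrocytes were high in 1 library and low in the others. Podocyte markers had list medians of 18.2, 0.665 and 0.515 FPKM in Ctr replicates 1, 2 and 3, endothelial markers of 16.9, 2.42 and 1.94 FPKM and erythrocyte markers of 31.7, 0.375 and 0.33 FPKM. Nphs1 (nephrin, ENSMUSG00000006649, GRCm38 chromosome 7, 30458315 to 30487223), of the filtration slit of podocytes, was listed at 23.7, 0.44 and 0.18 FPKM and Synpo (synaptopodin), of their foot processes, at 40.3, 2.22 and 1.14 FPKM. Emcn (endomucin), of the endothelial surface, was listed at 56.7, 5.5 and 3.38 FPKM. Ctr replicate 1 stood far above the others in all of these. It was at least 1.5-fold above the mean of the others, and above each of them, in all 10 podocyte genes and in all 10 endothelial genes, where 5.77% of all genes were. Nphs1, Nes, Wt1, Ptpro and Thsd7a, among other podocyte genes, and each of the 4 erythrocyte genes (of 6 listed) that did so, reached a mean of 1 FPKM through Ctr replicate 1 alone. Ctr replicate 3 lay at least 1.5-fold below the mean of the others in the same 10 podocyte and 10 endothelial genes, where 5.76% of all genes did, with Ctr replicate 1 setting that mean. The median ratio of Ctr replicate 1 to the mean of the others was 23.2 for podocyte genes and 5.98 for endothelial genes. Podocyte and endothelial markers together reached 6.15, 0.903 and 0.564% of the proximal median, and the mean of 2.54 ± 3.13% was 0.734% without Ctr replicate 1. Globins followed the same pattern, with Hbb-bs, a beta-globin, at 134, 0.77 and 0.39 FPKM. Of the mesangial and vascular genes, Pdgfrb, a receptor of mesangial cells and pericytes, was listed at 8.23, 0.83 and 0.37 FPKM and highest in Ctr replicate 1, while Acta2, smooth muscle actin, was more even at 18.1, 16.2 and 12.3 FPKM.

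Most markers of immune cells and of the urothelium lay below 1 FPKM. Of 10 macrophage and dendritic cell genes 2 reached 1 FPKM, and of 9 lymphocyte and granulocyte genes and 6 urothelial genes 0 did. The macrophage marker Csf1r had 1.2, 2.29 and 2.13 FPKM. Lyz2, a lysozyme of myeloid cells, had 7.58, 0.39 and 0.24 FPKM, and reached a mean of 1 FPKM through Ctr replicate 1 alone.

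**Figure D4:**
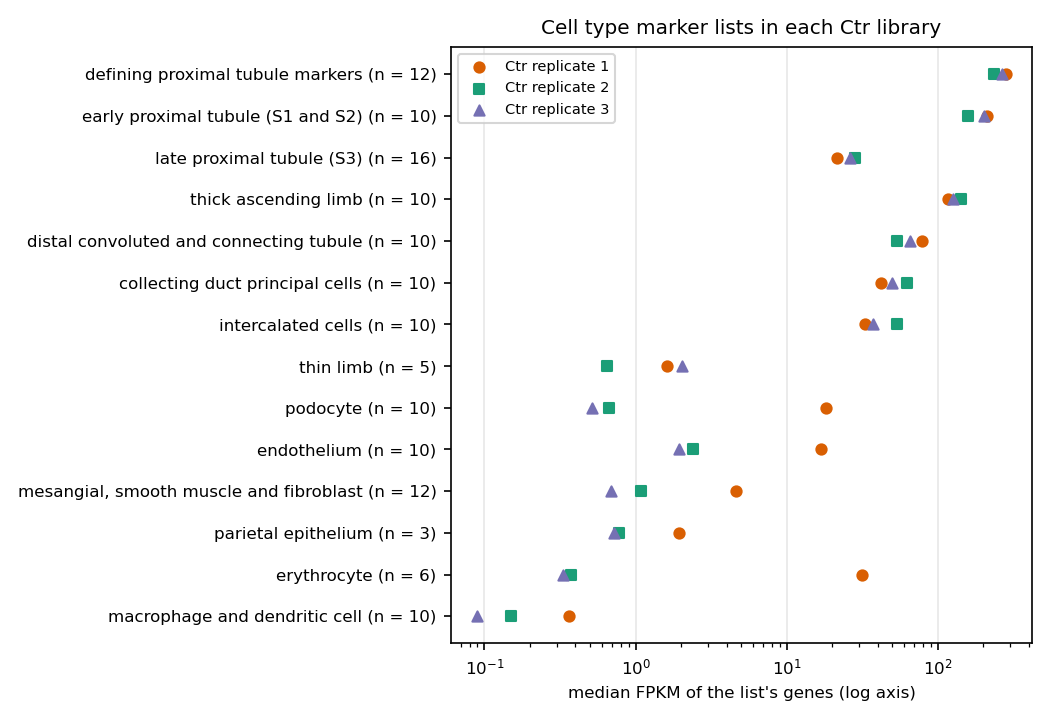
Median FPKM on a log axis of each marker list in each of the 3 Ctr libraries, with 1 row per list. The proximal lists and those of the thick limb to the collecting duct lie between 21.6 and 280.4 FPKM in all 3 libraries, and the podocyte, endothelial and erythrocyte lists are set apart by Ctr replicate 1.

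Over the 12758 genes of mean at least 1 FPKM, the median CV between the libraries was 10.5%, and the 10th and 90th percentiles were 3.47% and 31.5%. The median CV was 24.96% among genes of 1 to 2 FPKM and 6.71% among those of 100 to 1000 FPKM, and it was 10.1% among the 59 genes of at least 1000 FPKM. Across genes, Ctr replicates 2 and 3 correlated with Pearson's r = 0.986 on log2(FPKM + 1), and Ctr replicate 1 with them by 0.970 and 0.971. Genes are not independent replicates, so these values only describe the likeness of the libraries. More than a 2-fold difference on the same scale was seen for 406 genes between Ctr replicates 1 and 2, for 423 between 1 and 3 and for 132 between 2 and 3.

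Among nuclear protein-coding genes of mean at least 20 FPKM, Mpc2, a subunit of the mitochondrial pyruvate carrier, had the least spread, at 403, 403 and 404 FPKM. It was followed by the ribosomal protein gene Rpl14 at 368, 368 and 368 FPKM and by Ndufb6, a subunit of complex I, at 189.5, 189 and 189 FPKM. These are the extremes of 3739 genes ranked over 3 libraries. At the other end, Hbb-bs had the widest spread, followed among others by Plat, a plasminogen activator, at 88.8, 3.17 and 2.73 FPKM, Podxl, the coat protein of podocytes and endothelium, at 126, 9.19 and 7.44 FPKM, and Sparc, a matrix protein, at 68.3, 11.4 and 9.51 FPKM. Ctr replicate 1 was the high library in all of these. Of the 8400 nuclear protein-coding genes with a mean of at least 5 FPKM, 37 had a CV above 100%, and all 37 were highest in Ctr replicate 1, where 32% of the 8400 were. Of the 37, 15 belonged to the lists of other cells, which hold 67 (0.798%) of the 8400 genes. A gene can pass these minimum levels through 1 high library, as Hbb-bs and Plat did through Ctr replicate 1 alone. The 2 counts therefore follow in part from the minimum, and the lists were chosen with earlier results known. Pdk4, which restrains the use of pyruvate, also stood among the 10 of widest spread but with Ctr replicate 2 as the high library, at 12.6, 36.7 and 11.8 FPKM.

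**Figure D5:**
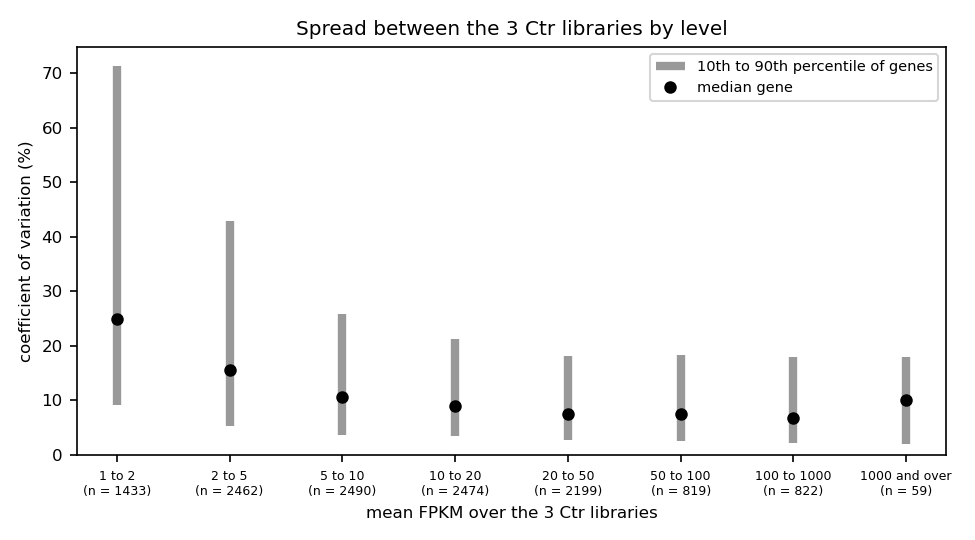
CV over the 3 Ctr libraries in percent, for genes grouped by mean FPKM along the other axis, with a point for the median gene of each group and a bar from the 10th to the 90th percentile. The median was 24.96% at 1 to 2 FPKM and 6.71% at 100 to 1000 FPKM, and the spread between genes of 1 level narrows in the same way up to about 50 FPKM.

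The marker lists of several cell types had their lowest or highest levels in the same library. Ctr replicate 1 was the library with the highest podocyte, endothelial and erythrocyte markers and the lowest S3, thick limb and principal cell markers. Slc22a7, Slc7a12 and Slc5a10, also lowest in it, are themselves members of the S3 list and add nothing separate to it. Ctr replicate 2 had the highest immediate early genes, intercalated markers and mitochondrial share, and the lowest early proximal markers. The part that other cells, tissue handling or 1 library had in the levels of the tubule genes was not tested. Without Ctr replicate 1, the S3 median was 15.3% of the early median, against 13.6 ± 3.89% with it.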

How the data were processed

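RNA of prominin-1-positive kidney cortex cells was sequenced, and the authors deposited 1 table of FPKM values for 52405 Ensembl gene identifiers. Per the submitters' processing notes, the tools were DESeq2 1.28.1, RSEM and STAR 2.6.0c, with no roles stated. Which build, annotation and strand setting were used is not given in the sources used here. Identifiers were matched to GENCODE M21 (GRCm38), which found 52147 (99.5%), and a symbol shared by several identifiers was read from the one of highest mean. Because FPKM is scaled within a library, very abundant genes lower the values of the rest, and near-identical genes share fragments by an estimate.

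Only the 3 Ctr columns were used, as deposited. Depth was estimated from the steps of low values, 76.9 to 80.3% of which lay within 0.15 of a whole fragment, and 1 fragment is worth about 0.045 FPKM for 1 kilobase. Genes of mean at least 1 FPKM (12758) entered counts of libraries standing apart, defined as 1.5-fold beyond the mean of the other 2 and beyond each. With 1 group and 3 libraries, no test was made and no p-value is given. The labels call the libraries biological replicates without saying how many animals each holds, so the SDs are those between libraries. Members, gene lists and comparisons were chosen with earlier results of these data known. The text names the 25 nuclear protein-coding genes of highest mean, the leading members of each list, the small families, and the genes of widest and narrowest spread at a mean of at least 20 FPKM. Slc5a10, Slc7a12, Slc22a7, Plat, Sparc and other genes outside this rule were chosen after their values were seen. Some genes that the rule names are not reported here. Python 3.11.15, numpy 2.4.6, pandas 2.3.3 and matplotlib 3.10.9 were used, and the estimate of depth and the rule for libraries standing apart were tested on simulated data. Alternatives were other minimum levels and folds, totals without mitochondrial or ribosomal protein genes, sums or log means in place of medians, rescaling to TPM and each library left out.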

Additional observations from a re-analysis of the deposited data

How the results depend on the processing

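Leaving out mitochondrially encoded genes raised the number of genes to 50% of the summed FPKM to 283, and leaving out ribosomal protein genes too gave 265. The top 10 then held 21.4% and 22.6%, and the top 100 held 37.5% and 39.4%. Without the chromosome 1 copies as well, an alternative chosen after seeing the data, these were 496 genes, 8.27% and 25.2%. With those copies, also chosen after seeing the data, the mitochondrial share was 35.4%. By sums in place of medians, the later tubule reached 88.6% of the proximal markers and S3 56.5% of the early markers. Of the 15 lists of other cells taken singly, 8 moved by more than 1 SD of their share of the proximal markers by sums and 9 by means of log2(FPKM + 1). By sums, the thick limb list reached 31.6%, the distal convoluted and connecting tubule list 43.5%, principal cells 8.65%, intercalated cells 4.85% and the hepatocyte list 1.27%, and by log means the thick limb list reached 27.5%, principal cells 11.1% and the hepatocyte list 3.02%. The medians of these lists gave 50.03% for the thick limb, 25.1% for the distal convoluted and connecting tubule, 20.04% for principal cells, 16.2% for intercalated cells and 5.09% for hepatocytes. The other lists that moved were below 2% by each measure. The median CV was 15.3% at a mean of at least 0.1 FPKM, 8.58% at 5 FPKM and 26.1% with no minimum, and the SD of log2(FPKM + 1) as a percent was 9.25%. It lay between 8.04% and 8.95% with 1 library left out, where only 2 values enter.

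The counts of genes on which a library stood apart shrank with stricter limits. At 2-fold, Ctr replicate 1 was higher in 412 genes and lower in 159, Ctr replicate 2 in 121 and 174, and Ctr replicate 3 in 78 and 369. At a mean of at least 5 FPKM they were 187 and 206, 138 and 181, and 85 and 171. Apart from the values and the single lists given above in this section, the summary values of these comparisons moved by less than 1 SD or 1.5 times. The podocyte and endothelial share did so because its SD is large: it ran from 0.734 to 3.53% with 1 library left out. Of 491 gene levels, 372 moved by more than 1 SD when rescaled to TPM and 345 with mitochondrially encoded genes out of the total, since both change the scale of all genes.

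No paired analysis was possible because 1 group was described and no groups were compared. The depth allows about 1 fragment in 0.045 FPKM for 1 kilobase, so levels below 0.1 FPKM rest on a few fragments.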

Other observations

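A few other genes differed between the Ctr libraries in ways the lists do not cover, and all were chosen after their values were seen. H2-Q6 and H2-Q7, class I histocompatibility genes of near-identical sequence, were listed at 48.4, 1.60 and 1.36 FPKM and at 35.0, 1.11 and 1 FPKM in Ctr replicates 1, 2 and 3. Both were high in Ctr replicate 1, and the division between them is uncertain. Txnip, which glucose is known to induce, was listed at 242, 388 and 161 FPKM, and Id1 and Id3, targets of bone morphogenetic protein signalling, at 59.7, 121 and 60.8 FPKM and at 72.5, 142 and 65.7 FPKM. All 3 were highest in Ctr replicate 2. The clock gene Per1 was listed at 7.91, 15.1 and 19.6 FPKM and Noct, a rhythmic phosphatase of nicotinamide cofactors, at 2.97, 7.63 and 15.7 FPKM. Both were lowest in Ctr replicate 1 and highest in Ctr replicate 3.

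Gm26377, annotated as a microRNA gene, was listed at 2134, 2418 and 1699.9 FPKM, which would place it among the most abundant genes of the tissue. It lies inside Eef1a1 on the same strand, and the table does not show which of these genes its fragments came from.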
